A study of Mus musculus with 8 samples.

Results

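The genes described here encode the collagens, the laminins and 8 matrix, transport and enzyme genes that mark the meninges and their fibroblasts, measured by RNA-seq of mouse corpus callosum. They were chosen by a rule on gene symbols, with earlier results of these data known. It took every symbol built as Col, digits, a and digits, every laminin chain symbol (Lama, Lamb or Lamc and 1 digit), and Dcn, Lum, Ogn, Mgp, Islr, Igf2, Slc6a13 and Aldh1a2. The rule found 63 of the 41128 genes in the table, made up of 44 collagens, 11 laminins and the 8 meningeal genes. Of the 63, 60 had enough counts to be tested, and every count of members below is over those 60.

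Tissue came from PLP-150Q mice, which model Huntington's disease by expressing a mutant huntingtin fragment under a promoter active mainly in oligodendrocytes. Mice of both groups carried this transgene, so no library here shows the matrix of a mouse without it. From an age of 3 months they were given LAQ, read as laquinimod, an oral immunomodulator, at 5 mg/kg, or purified water. Treatment lasted 2 months and the mice were 5 months old at the end. There were 4 LAQ libraries, numbered 5 to 8, and 4 control libraries, numbered 1 to 4. The study gives 4 mice per group, and the labels carry no mouse number, litter or batch for a library.

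Collagens are triple helices of 3 chains in which glycine recurs regularly, and they give connective tissue its tensile strength. Laminins are cross-shaped trimers of an alpha, a beta and a gamma chain that assemble with type IV collagen into basement membranes, the thin sheets under endothelium and around the brain surface. Healthy white matter holds little fibrillar collagen. In the brain the main sources of these proteins are vessel walls, perivascular fibroblasts and the meninges, and a few chains are made by neurons.

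LAQ libraries held 9634156 to 12021429 counted reads and control libraries 8790749 to 11972197, and the members took 0.0722% to 0.103% of them in LAQ and 0.0889% to 0.119% in control. Levels are given as CPM (counts made comparable between libraries with TMM factors), always in the order LAQ 5, 6, 7 and 8, then control 1, 2, 3 and 4. LAQ 7 stood apart from the other LAQ libraries, where the chi-square statistic of their counts over its degrees of freedom was 15.02 to 23.9, beside 7.44 to 8.43 among the other LAQ libraries and 4.07 to 5.76 among control libraries. Myelin RNA was abundant, with Mbp, the myelin basic protein gene, at 6885 to 8887 CPM in LAQ and 6391 to 7619.8 CPM in control, and Mog, a myelin surface protein gene, at 197 to 236 CPM in LAQ and 187 to 202 CPM in control. Neuronal and choroid plexus RNA was present too: 12 cortical excitatory neuron markers summed to 2564 to 4147 CPM in LAQ and 3678 to 4213 CPM in control, and 12 choroid plexus markers to 1381 to 3856 CPM in LAQ and 414 to 2669.8 CPM in control. Of 9 myelin and oligodendrocyte markers 9 had a log2 fold change above 0 (median 0.21). Of them 5 had an unadjusted edgeR p under 0.05 (11.1% of all genes) and 2 had no overlap between the groups (6.39% of all genes). Of 8 hippocampal neuron markers 8 had a log2 fold change above 0 (median 0.91, summed 273 to 508 CPM in LAQ and 218 to 355 CPM in control), and of 8 thalamic and habenular markers 0 (median -0.49, summed 201 to 366 CPM in LAQ and 318 to 464 CPM in control). Of 10 astrocyte markers 3 were above 0 and 7 below (median -0.098), and of 4 tested blood cell markers 4 were above 0 (median 0.56). At an unadjusted edgeR p under 0.05 there were 4 hippocampal, 4 thalamic and habenular, 2 astrocyte and 4 blood cell markers. No overlap between the groups was seen for 2 astrocyte markers and for 0 of those other 3 lists. edgeR called no marker of any list used here, while DESeq2 called Hbb-bt, Cux2, Mef2c, Tspan2 and Rora, with adjusted p of 0.00163 to 0.0474. The part of neighbouring tissue and of myelin RNA in the members' values was not tested. In bulk RNA of this kind, fewer cells of a type and less RNA per cell cannot be told apart.

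Per kilobase of exon, the highest members were Col6a1, a chain of the type VI microfibrils, at 17.2 in LAQ and 22.8 in control CPM per kilobase, and Col9a3, a chain of the fibril-associated type IX collagen, at 22.1 in LAQ and 16.7 in control. On the same scale Col4a2, a common type IV chain of vessel basement membranes, stood at 8.29 in LAQ and 10.1 in control, and its partner Col4a1 at 6.26 in LAQ and 7.77 in control. Near these stood Lamb2, the beta chain of mature vessel laminins, at 7.54 in LAQ and 9.16 in control CPM per kilobase, the stromal cell gene Islr at 9.03 in LAQ and 8.96 in control and the growth factor gene Igf2 at 9.21 in LAQ and 7.23 in control. Fibrillar collagen was lower, with Col1a1 at 1.38 in LAQ and 1.62 in control CPM per kilobase and Col3a1 at 0.788 in LAQ and 0.907 in control. Exon length here takes in every annotated exon base of a gene. Levels and chain ratios per kilobase therefore depend on the annotated transcripts and do not give the proportions of chains.

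The design sets LAQ against water within transgenic mice. None of the 60 members passed edgeR's quasi-likelihood test over all genes (0 with an adjusted p under 0.05, background 0% of 15771 genes), and the smallest adjusted p was 0.140, for Col5a1. At an unadjusted edgeR p under 0.05 there were 9 members (15%), against 11.1% of all genes tested: 3 were higher in LAQ (5%, background 4.77%) and 6 lower (10%, background 6.33%). The groups did not overlap for 3 members (5%), against a background of 6.39%. They were Col5a1 and Col19a1 on the lower side (background 3.61%) and Lamb1 on the higher (background 2.78%), so these shares lie near those of all genes. DESeq2 called Col5a1 and Col19a1 among 59 members with an adjusted p (background 0.837%), while limma voom and robust edgeR called 0. Of the 60 log2 fold changes 42 were below 0 (70%, background 50.3%) and 18 above, with a median of -0.18, beside -0.0012 over all genes. That median was -0.087 without control 4 and -0.069 without LAQ 6. Without LAQ 7 edgeR called Col5a1 and Col19a1 (background 2.13%), and 21 members (35%) had an unadjusted p under 0.05, against 19.7% of all genes. Without the filter on low counts edgeR called Col5a1 (background 0.0993%), and 15 of the 60 had an unadjusted p under 0.05 (background 8.78%). Both backgrounds are then over 25164 genes, many of low counts, while the 60 members all passed the filter, so the shares are not like for like. With a score of the cortical markers as covariate edgeR called 10 members (16.7%, background 3.54%), a score that was -0.011, 0.29, -1.23 and -0.63 in LAQ and 0.33, 0.56, 0.47 and 0.20 in control. LAQ 6 alone of the LAQ libraries lay inside the control range of the score, so score and treatment cannot be fully told apart in that fit. Those 10 were Col5a1, Col24a1, Col4a1, Col7a1, Col6a1, Col6a2, Col16a1, Col19a1 and Lamb2 on the lower side and Col25a1 on the higher, with edgeR adjusted p of 0.0125 to 0.0375. Below, log2 ratio stands for the log2 fold change of LAQ over control, and the ± after it is the standard error.

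**Figure D1:**
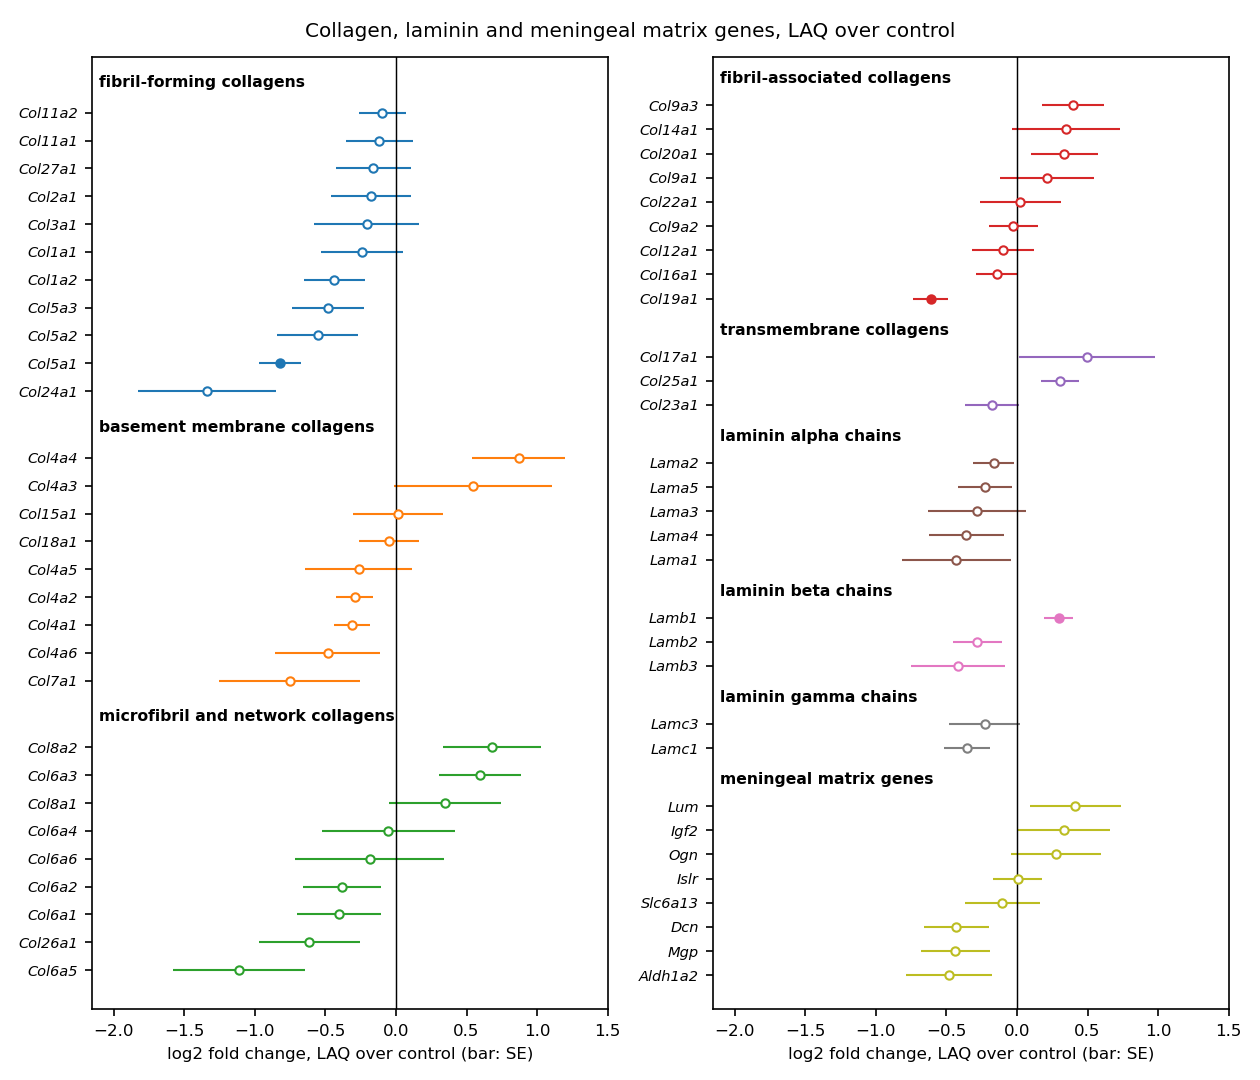
Log2 fold change of 59 of the 60 members tested, LAQ over control, with its standard error, grouped by protein family on a common axis. Filled points mark Col5a1, Col19a1 and Lamb1, whose 4 LAQ and 4 control libraries did not overlap, and all 11 fibril-forming collagens lie left of 0.

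The fibril-forming collagens, the chains of the tensile fibres and their nucleators, all had a log2 fold change below 0: 11 of 11, with a median of -0.24, 0 past the adjusted threshold and 2 at an unadjusted edgeR p under 0.05. Col5a1, the type V chain that starts type I fibrils and limits their width, had 16.4, 13.6, 15.4 and 20.7 CPM in LAQ, against 35.7, 26.2, 24.5 and 29.9 CPM in control. Every LAQ library was below every control library. The means were 16.5 ± 3.02 CPM in LAQ and 29.1 ± 4.99 CPM in control (SD, n = 4 each), and the log2 ratio was -0.82 ± 0.15. Its adjusted p was 0.140 by edgeR and 0.000682 by DESeq2. Leaving out any single library kept the log2 fold change between -0.94 and -0.70. Of those fits only the one without LAQ 7 had an edgeR adjusted p under 0.05, at 0.0281. Its gene lies on chromosome 2 from 27886425 to 28039514 in GRCm38 (GENCODE M21), and 2 genes on the other strand share exon bases with it, 2810430I11Rik with 99 bases and 3 to 11 counts and Gm13372 with 113 bases and 1 to 13 counts, against 151 to 374 counts for Col5a1. Col5a2, its partner chain, stood at 4.95, 3.42, 2.47 and 3.64 CPM in LAQ, against 6.31, 5.23, 6.86 and 2.98 CPM in control, with control 4 among the LAQ values and a log2 ratio of -0.56 ± 0.29. Col5a3, the remaining type V chain, had -0.48 ± 0.26 (edgeR adjusted p = 0.490 and 0.509).

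Col24a1, a minor fibrillar chain known from developing mouse bone and cornea, was the member with the lowest log2 fold change, -1.34 ± 0.49. It stood at 0.191, 1.98, 3.95 and 3.64 CPM in LAQ, against 7.45, 3.90, 5.38 and 7.94 CPM in control. LAQ 5 held only 2 counts, and LAQ 7 lay just above control 2, so the groups overlapped (edgeR adjusted p = 0.360). Without LAQ 5 the log2 ratio was -0.96. The chains of the main connective tissue collagens were low and spread widely. Col1a2, a type I chain, had 17.4, 9.54, 16.8 and 12.5 CPM in LAQ, against 15.3, 18.3, 15.9 and 26.4 CPM in control, with LAQ 6 lowest and control 4 highest, and a log2 ratio of -0.44 ± 0.22 (edgeR adjusted p = 0.472), or -0.22 without control 4. Its partner Col1a1 had -0.24 ± 0.29 and Col3a1, the chain of reticular fibres, -0.21 ± 0.37. Both were lowest in LAQ 6 and highest in control 4. Col11a2, a cartilage fibril chain, had -0.097 ± 0.17, and 0.012 without LAQ 6. The other cartilage chains, Col2a1, Col11a1 and Col27a1, ran from -0.18 to -0.12. Summed over the class, the level was 78.1 to 111 CPM in LAQ and 119.5 to 152 CPM in control.

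Col5a1, Col19a1 and Lamb1 are shown by their promoter windows, because they are the members whose groups did not overlap. The windows come from RefSeq (build GRCm38.p6) and span 250 bases before to 50 bases after the annotated start, 5′ to 3′ on the strand of the gene. Windows were found for 45 of the 63 members. Capitals mark 3 motifs, searched on both strands: the GC box GGGCGG, the TATA box TATAAA and CCAAT. The pair Col4a1 and Col4a2 follows, because those neighbours start from 1 shared stretch on opposite strands.
Col5a1, chr2:27886175-27886474, plus strand: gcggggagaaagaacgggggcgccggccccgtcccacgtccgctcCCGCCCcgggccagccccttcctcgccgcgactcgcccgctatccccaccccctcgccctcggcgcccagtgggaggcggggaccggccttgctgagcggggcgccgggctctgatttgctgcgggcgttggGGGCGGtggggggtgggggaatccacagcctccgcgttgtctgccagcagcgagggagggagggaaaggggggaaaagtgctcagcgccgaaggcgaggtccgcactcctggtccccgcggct
Col19a1, chr1:24587388-24587687, minus strand: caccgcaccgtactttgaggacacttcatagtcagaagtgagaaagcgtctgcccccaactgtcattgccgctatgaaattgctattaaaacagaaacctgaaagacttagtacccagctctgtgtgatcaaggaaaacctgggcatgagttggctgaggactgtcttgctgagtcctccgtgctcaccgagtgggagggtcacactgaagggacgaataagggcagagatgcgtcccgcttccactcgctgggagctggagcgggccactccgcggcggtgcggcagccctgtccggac
Lamb1, chr12:31265043-31265342, plus strand: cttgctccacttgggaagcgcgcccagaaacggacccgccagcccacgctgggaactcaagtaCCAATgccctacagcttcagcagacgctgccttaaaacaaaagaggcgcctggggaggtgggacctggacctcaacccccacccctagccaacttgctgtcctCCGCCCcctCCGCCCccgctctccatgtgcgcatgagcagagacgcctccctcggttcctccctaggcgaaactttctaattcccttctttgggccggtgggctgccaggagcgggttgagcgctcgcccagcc
Col4a1, chr8:11312777-11313076, minus strand: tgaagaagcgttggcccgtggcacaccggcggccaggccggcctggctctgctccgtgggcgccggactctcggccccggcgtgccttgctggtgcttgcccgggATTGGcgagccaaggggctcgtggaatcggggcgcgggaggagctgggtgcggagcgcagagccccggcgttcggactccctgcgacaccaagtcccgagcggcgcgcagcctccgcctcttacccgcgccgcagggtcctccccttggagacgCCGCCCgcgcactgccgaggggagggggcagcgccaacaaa
Col4a2, chr8:11312555-11312854, plus strand: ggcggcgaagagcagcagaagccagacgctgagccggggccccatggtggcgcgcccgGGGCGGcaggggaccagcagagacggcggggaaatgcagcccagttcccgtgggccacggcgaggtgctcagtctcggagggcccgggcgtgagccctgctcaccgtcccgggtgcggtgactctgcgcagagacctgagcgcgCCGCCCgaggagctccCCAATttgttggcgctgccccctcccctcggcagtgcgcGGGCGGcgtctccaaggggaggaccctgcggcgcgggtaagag
The Col5a1 window held 2 GC boxes and neither of the other motifs, with G or C at 75% of its positions. The Col19a1 window held none of the motifs, with G or C at 56.3%. The Lamb1 window held 2 GC boxes and 1 CCAAT motif, with G or C at 63.7%. The Col4a1 window held 1 GC box and 1 CCAAT motif, and that of Col4a2 held 3 and 1. Those windows share 78 bases, and the first exons of the pair overlap by 22 bases in GENCODE M21. A GC box was present in 35.7% of all 32851 windows and in 53.7% of the 54 member windows, the TATA box in 13.6% and 11.1%, and the CCAAT motif in 37.4% and 33.3%. The median share of G or C over all windows was 52.7%.

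**Figure D2:**
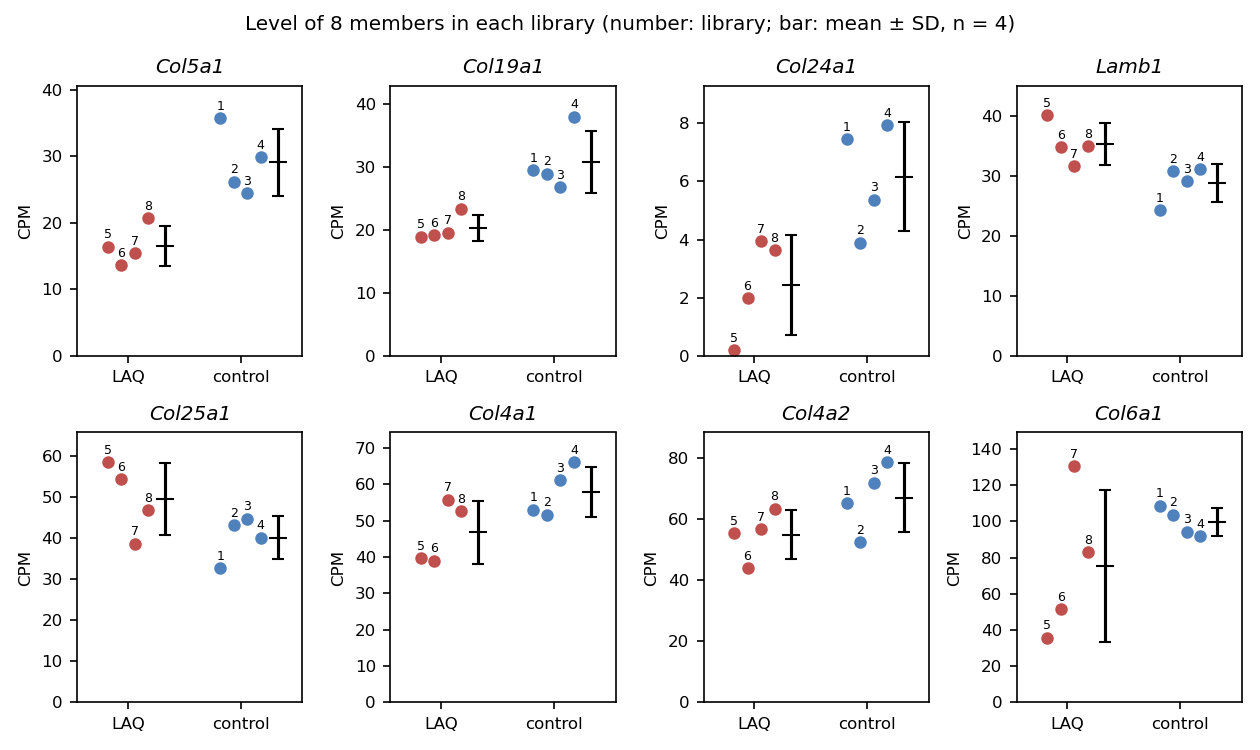
Level of 8 members in CPM in each library, LAQ left of control, with the library number at each point and the mean ± SD beside it (n = 4 each). Col5a1, Col19a1 and Lamb1 separate the groups, Col24a1 nearly does, and Col6a1 spreads from 35.7 to 131 CPM within LAQ.

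Among the basement membrane collagens 3 of 9 log2 fold changes were above 0 and 6 below, with a median of -0.26. Col4a1 had 39.6, 39.0, 55.8 and 52.6 CPM in LAQ, against 53.0, 51.7, 61.1 and 66.1 CPM in control. LAQ 5 and 6 were below every control library and LAQ 7 and 8 were within the control range. The log2 ratio was -0.31 ± 0.13 and the edgeR adjusted p 0.411. Col4a2 had 55.4, 44.0, 56.7 and 63.4 CPM in LAQ, against 65.3, 52.5, 72.0 and 78.6 CPM in control, with only LAQ 6 below the control range and a log2 ratio of -0.29 ± 0.13 (edgeR adjusted p = 0.444). The ratio of Col4a2 to Col4a1, each per kilobase, was 1.146 to 1.578 in LAQ and 1.145 to 1.388 in control. The chains typical of kidney, lung and eye basement membranes were scarce. Col4a4 stood at 1.71, 1.08, 1.98 and 2.18 CPM in LAQ, against 0.860, 0.668, 1.26 and 0.993 CPM in control, with LAQ 6 inside the control range and the other LAQ libraries above it (log2 ratio 0.87 ± 0.33, edgeR adjusted p = 0.371). Col4a3 had 0.55 ± 0.56, and 563 of its exon bases overlap the opposite-strand gene C430014B12Rik, which had 195 to 320 counts beside 2 to 33 for Col4a3. Strand was not stated for the counting, so its reads and those of its neighbour may be mixed. Col7a1, the anchoring fibril chain of skin, had 2 to 24 counts per library and a log2 ratio of -0.75 ± 0.50, or -1.55 without LAQ 7. The remaining members, Col4a5, Col4a6 and the vessel-associated Col15a1 and Col18a1, ran from -0.48 to 0.015, with edgeR adjusted p of at least 0.667.

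Beside this class, 10 of 10 endothelial markers and 10 of 10 mural markers had log2 fold changes below 0, with medians of -0.24 and -0.30. The endothelial list, which includes Cldn5 and Pecam1, summed to 215 to 439 CPM in LAQ and 351 to 438 CPM in control. The mural list, which includes Pdgfrb and Rgs5, summed to 187 to 389 CPM in LAQ and 295 to 383 CPM in control. LAQ 6 was the lowest library in both, as in Col4a1 and Col4a2. LAQ 7 was the highest library in both sums. The leading endothelial gene was the efflux transporter Abcb1a (-0.58 ± 0.24) and the leading mural gene was Vtn, encoding vitronectin (-0.31 ± 0.17). No marker of either list passed edgeR's adjusted threshold, and the part of vessel content in the basement membrane values was not tested.

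Type VI collagen forms beaded microfibrils between basement membranes and stroma. Col6a1 had 35.7, 51.5, 131 and 83.0 CPM in LAQ, against 109, 104, 94.4 and 91.9 CPM in control. LAQ 5 and 6 were far below the control range, LAQ 8 was just below it and LAQ 7 was above it. Col6a2 followed the same order of LAQ libraries with 9.62, 12.7, 30.1 and 23.5 CPM in LAQ, against 28.0, 24.8, 22.5 and 23.7 CPM in control. Their log2 fold changes were -0.40 ± 0.29 and -0.38 ± 0.28 (edgeR adjusted p = 0.643 and 0.643), and without LAQ 7 they were -0.82 and -0.71 (edgeR adjusted p = 0.0507 and 0.109). The ratio of Col6a1 to Col6a2 per kilobase stayed within 6.71 to 8.27 in LAQ and 7.38 to 7.96 in control. Col6a3, the long chain that completes the trimer, had the opposite sign at 4.29, 5.94, 7.58 and 3.22 CPM in LAQ, against 2.68, 2.90, 3.43 and 4.88 CPM in control. Its log2 ratio was 0.60 ± 0.29 (edgeR adjusted p = 0.465), or 0.36 without LAQ 7. Of the related chains, Col6a5 had -1.11 ± 0.47 on 6 to 26 counts per library, and Col6a4 and Col6a6 had -0.054 ± 0.47 and -0.19 ± 0.53. Col26a1 had -0.61 ± 0.36 (edgeR adjusted p = 0.543).

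The network-forming type VIII chains, known from vascular and corneal endothelium, had positive log2 fold changes. Col8a2 stood at 36.8, 16.8, 18.3 and 23.2 CPM in LAQ, against 19.1, 6.68, 9.27 and 23.3 CPM in control, with control 2 and 3 lowest and LAQ 5 highest. The log2 ratio was 0.68 ± 0.35 and the edgeR adjusted p 0.490. Col8a1 had 18.8, 7.38, 11.6 and 14.0 CPM in LAQ, against 11.6, 2.90, 8.69 and 16.8 CPM in control, and its log2 ratio was 0.35 ± 0.40, again with control 2 lowest and LAQ 5 highest. Without control 4 the value for Col8a2 was 1.01, and without LAQ 5 it was 0.39.

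Fibril-associated collagens sit on the surface of larger fibres, and 5 of 9 had a log2 fold change above 0 and 4 below, with a median of 0.025. Col19a1, a chain that mouse interneurons secrete and that takes part in forming inhibitory synapses, had 19.0, 19.2, 19.6 and 23.4 CPM in LAQ, against 29.5, 29.0, 26.8 and 38.0 CPM in control. All 4 LAQ libraries were below all 4 control libraries, and LAQ 5, 6 and 7 were within 1 CPM of each other. The means were 20.3 ± 2.10 CPM in LAQ and 30.8 ± 4.93 CPM in control (SD, n = 4 each), with a log2 ratio of -0.61 ± 0.12, an edgeR adjusted p of 0.160 and a DESeq2 adjusted p of 0.00792. Over the fits without 1 library the log2 fold change ranged from -0.68 to -0.48. The edgeR adjusted p was under 0.05 only without LAQ 7, at 0.0410. Its gene lies on chromosome 1 from 24261890 to 24587472 in GRCm38. In the cortical excitatory neuron list 9 of 12 log2 fold changes were below 0 and 3 above, Neurod6 at 0.65, Neurod2 at 0.26 and Fezf2 at 0.026. At an unadjusted edgeR p under 0.05 there were 5 of the 12, all lower (background 6.33%). The smallest p belonged to the transcription factors Cux2 (-0.76 ± 0.15) and, next, Mef2c (-0.42 ± 0.096). With the score of these markers as covariate the log2 ratio of Col19a1 was -0.72, in a fit where score and treatment cannot be fully told apart. The part of cortical tissue in the Col19a1 value was not tested.

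Col9a3 had 93.0, 59.0, 85.6 and 103 CPM in LAQ, against 71.2, 43.3, 49.8 and 92.6 CPM in control, a log2 ratio of 0.40 ± 0.22 (edgeR adjusted p = 0.522), with control 2 and 3 lowest. Its partner Col9a2 had -0.024 ± 0.17 and Col9a1 0.22 ± 0.33, and the ratio of Col9a3 to Col9a2 per kilobase was 2.19 to 3.94 in LAQ and 1.92 to 3.29 in control. Exons of Col9a3 overlap the opposite-strand gene Tcfl5 by 234 bases, a gene with 6 to 30 counts. Col16a1, found at fibril surfaces and basement membranes, had -0.14 ± 0.15, and Col20a1 had 0.34 ± 0.24. Col12a1, Col14a1 and Col22a1 ran from -0.10 to 0.35.

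Transmembrane collagens span the cell membrane and shed their ectodomains. Col25a1, a neuronal chain whose shed form binds amyloid in brain plaques, had 58.5, 54.3, 38.7 and 46.9 CPM in LAQ, against 32.7, 43.1, 44.7 and 40.1 CPM in control. LAQ 5, 6 and 8 were above every control library and LAQ 7 was inside the control range. The log2 ratio was 0.31 ± 0.13 (edgeR adjusted p = 0.434) and was 0.41 without LAQ 7. Col23a1 had -0.18 ± 0.19, and the epithelial Col17a1 had 0.50 ± 0.48 on 3 to 17 counts. The 3 members below the filter were Col13a1 with 7 to 27 counts, Col28a1 with 4 to 10 and Col10a1, the growth plate chain, with 0 to 3.

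Of 11 laminin chains 10 had a log2 ratio below 0, with a median of -0.28, 0 past the adjusted threshold and 1, Lamb1, at an unadjusted edgeR p under 0.05. Lamb1, the beta chain most prominent in early and growing basement membranes, was the exception and had 40.2, 34.9, 31.7 and 35.0 CPM in LAQ, against 24.4, 30.9, 29.2 and 31.2 CPM in control. The lowest LAQ library, LAQ 7, was above the highest control library. The means were 35.5 ± 3.51 CPM in LAQ and 28.9 ± 3.15 CPM in control (SD, n = 4 each), a log2 ratio of 0.29 ± 0.11 (edgeR adjusted p = 0.356, DESeq2 adjusted p = 0.310). Lamb1 lies on chromosome 12 from 31265234 to 31329644 in GRCm38. Lamb2, the alternative beta chain, had 47.5, 31.7, 62.3 and 42.0 CPM in LAQ, against 50.6, 54.8, 49.0 and 68.4 CPM in control. Its groups overlapped, and the log2 ratio was -0.28 ± 0.18 (edgeR adjusted p = 0.575), or -0.47 without LAQ 7 and -0.14 without LAQ 6. The ratio of Lamb1 to Lamb2 per kilobase was 0.519, 0.676, 0.312 and 0.512 in LAQ and 0.295, 0.345, 0.365 and 0.280 in control. LAQ 7 alone of the LAQ libraries lay inside the control range of that ratio.

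Lamc1, the gamma chain of nearly all vascular laminins, had 35.4, 36.4, 45.9 and 24.4 CPM in LAQ, against 40.5, 45.3, 41.2 and 54.7 CPM in control. LAQ 8 was lowest and control 4 highest, and the log2 ratio was -0.35 ± 0.16 (edgeR adjusted p = 0.450), or -0.21 without LAQ 8. Lamc3, found at the mouse pial surface and retina, had -0.23 ± 0.25. All 5 alpha chains had a log2 ratio below 0, with a median of -0.28. Lama2, made by perivascular cells and astrocytes, had -0.17 ± 0.14. Lama4 and Lama5, the endothelial chains, had -0.36 ± 0.27 and -0.23 ± 0.19. Without LAQ 7 the value for Lama4 was -0.61. Lama1, the chain of the pial basement membrane, stood at 2.29, 3.24, 2.96 and 1.87 CPM in LAQ, against 1.82, 2.45, 2.75 and 6.79 CPM in control, so control 4 was far above the other libraries (log2 ratio -0.43 ± 0.39). The epithelial chains Lama3 and Lamb3 had -0.28 ± 0.34 and -0.42 ± 0.33. None of these alpha chains, Lamc1 and Lamc3 had an edgeR adjusted p under 0.450.

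The 8 meningeal genes divided evenly, 4 with a log2 fold change above 0 and 4 below, with a median of -0.049 and 0 at an unadjusted edgeR p under 0.05. Summed, they reached 193, 106, 121 and 147 CPM in LAQ and 145, 119, 115 and 191 CPM in control. Aldh1a2, the enzyme that makes retinoic acid in the meninges, had 15.6, 6.57, 7.08 and 5.51 CPM in LAQ, against 11.6, 8.80, 11.3 and 16.6 CPM in control. LAQ 5 and control 4 were highest, and the log2 ratio was -0.48 ± 0.30 (edgeR adjusted p = 0.583), or -0.92 without LAQ 5. Slc6a13, the meningeal transporter of GABA and taurine, had 16.2, 8.82, 11.6 and 6.86 CPM in LAQ, against 8.41, 9.02, 14.3 and 14.98 CPM in control, a log2 ratio of -0.10 ± 0.27 that was 0.061 without LAQ 8.

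Of the small leucine-rich proteoglycans that coat collagen fibrils, Dcn (decorin) had 35.2, 17.6, 25.0 and 21.8 CPM in LAQ, against 31.7, 43.3, 21.1 and 37.8 CPM in control, with a log2 ratio of -0.43 ± 0.23 (edgeR adjusted p = 0.504). Lum (lumican) had 10.7, 4.14, 4.28 and 5.41 CPM in LAQ, against 4.20, 4.34, 3.20 and 6.37 CPM in control, with LAQ 5 above all other libraries. Its log2 ratio was 0.41 ± 0.32, or 0.0079 without LAQ 5. Ogn (osteoglycin) showed the same library on top with 13.0, 6.66, 4.78 and 5.51 CPM in LAQ, against 5.92, 3.79, 6.64 and 8.11 CPM in control. Its log2 ratio was 0.28 ± 0.32, and -0.12 without LAQ 5. Mgp, an inhibitor of calcification, had 9.15, 3.87, 6.75 and 7.69 CPM in LAQ, against 8.89, 7.91, 7.89 and 12.2 CPM in control, with LAQ 6 lowest and control 4 highest (log2 ratio -0.44 ± 0.24). Islr, a marker of mesenchymal stromal cells, had 0.0049 ± 0.17. It shares 181 exon bases on the same strand with Islr2, so the division of reads between them is uncertain. Igf2, a growth factor made in rodent meninges and choroid plexus, had 60.7, 33.6, 43.0 and 73.6 CPM in LAQ, against 52.6, 19.4, 28.9 and 64.6 CPM in control, with control 2 and 3 lowest and LAQ 8 highest (log2 ratio 0.33 ± 0.33). The log2 fold change of Igf2 was 0.11 without control 2. None of these 6 genes had an edgeR adjusted p under 0.504.

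**Figure D3:**
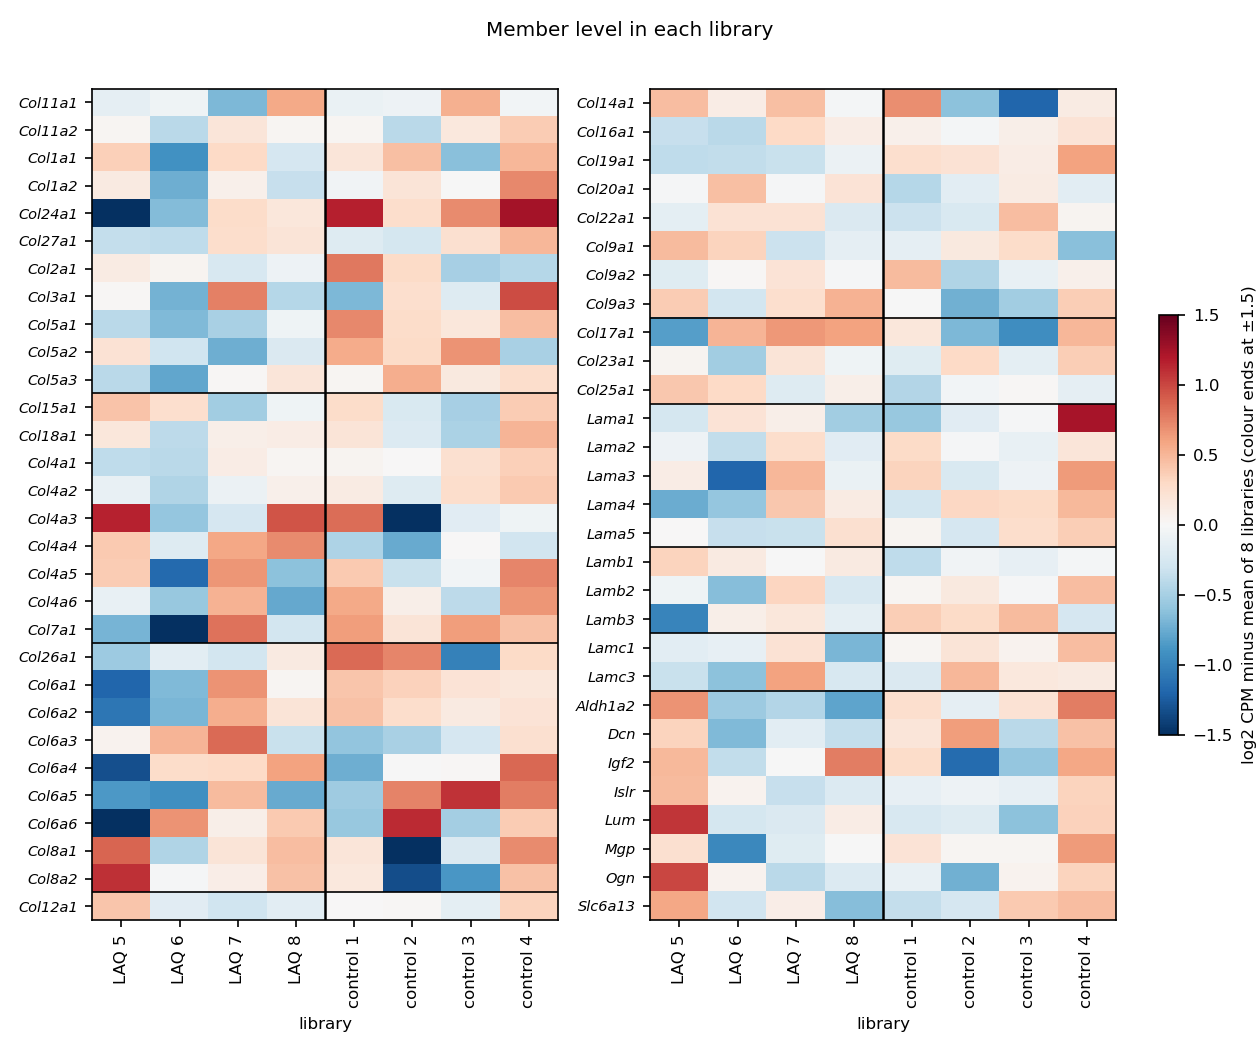
Level of 59 of the 60 tested members in each library as log2 CPM minus the mean of all 8 libraries, LAQ left of control, with black lines between protein families. Over the 60, control 4 is the highest library for 22 members and LAQ 6 the lowest for 21, and LAQ 5 holds both high meningeal genes and low Col6a1 and Col6a2.

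Across the 60 members, control 4 was the highest library for 22 and LAQ 6 the lowest for 21, while LAQ 5 was highest for 12. The median deviation of the members from their own mean over 8 libraries was 0.024, -0.37, 0.14 and -0.046 in LAQ and 0.040, -0.025, 0.0091 and 0.38 in control, on the log2 scale. Among the 15 tested of 17 other meningeal and fibroblast markers, such as Foxc1 and Slc22a6, LAQ 5 and control 4 stood highest, at median deviations of 0.36 and 0.45, and LAQ 6 lowest, at -0.51. Their summed level was 978 to 1549 CPM in LAQ and 1075 to 1614 CPM in control, most of it from Ptgds, which oligodendrocytes also express. Of these 15 markers 5 had a log2 fold change above 0 and 10 below, with a median of -0.18. Only 1 had an unadjusted edgeR p under 0.05, where the share over all genes was 11.1%. Foxc1 (-0.78 ± 0.26) and Crabp2 (-0.48 ± 0.30) had the smallest p-values of that list. Col8a1, Col8a2, Col9a3 and Igf2, singled out after their values were seen, had median deviations of 0.68, -0.32, 0.14 and 0.49 in LAQ and 0.17, -1.24, -0.55 and 0.51 in control. The choroid plexus markers had 1.08, -0.14, 0.11 and 0.83 in LAQ and 0.36, -1.90, -0.95 and 0.62 in control, with 11 of 12 log2 fold changes above 0, none of the 12 at 0 counts in any library, and Kcne2 (1.02 ± 0.43) and F5 (0.71 ± 0.36) leading. Both sets were lowest in control 2 and then control 3, and highest in LAQ 5. The part of meningeal and choroid plexus tissue in these member values was not tested.

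**Figure D4:**
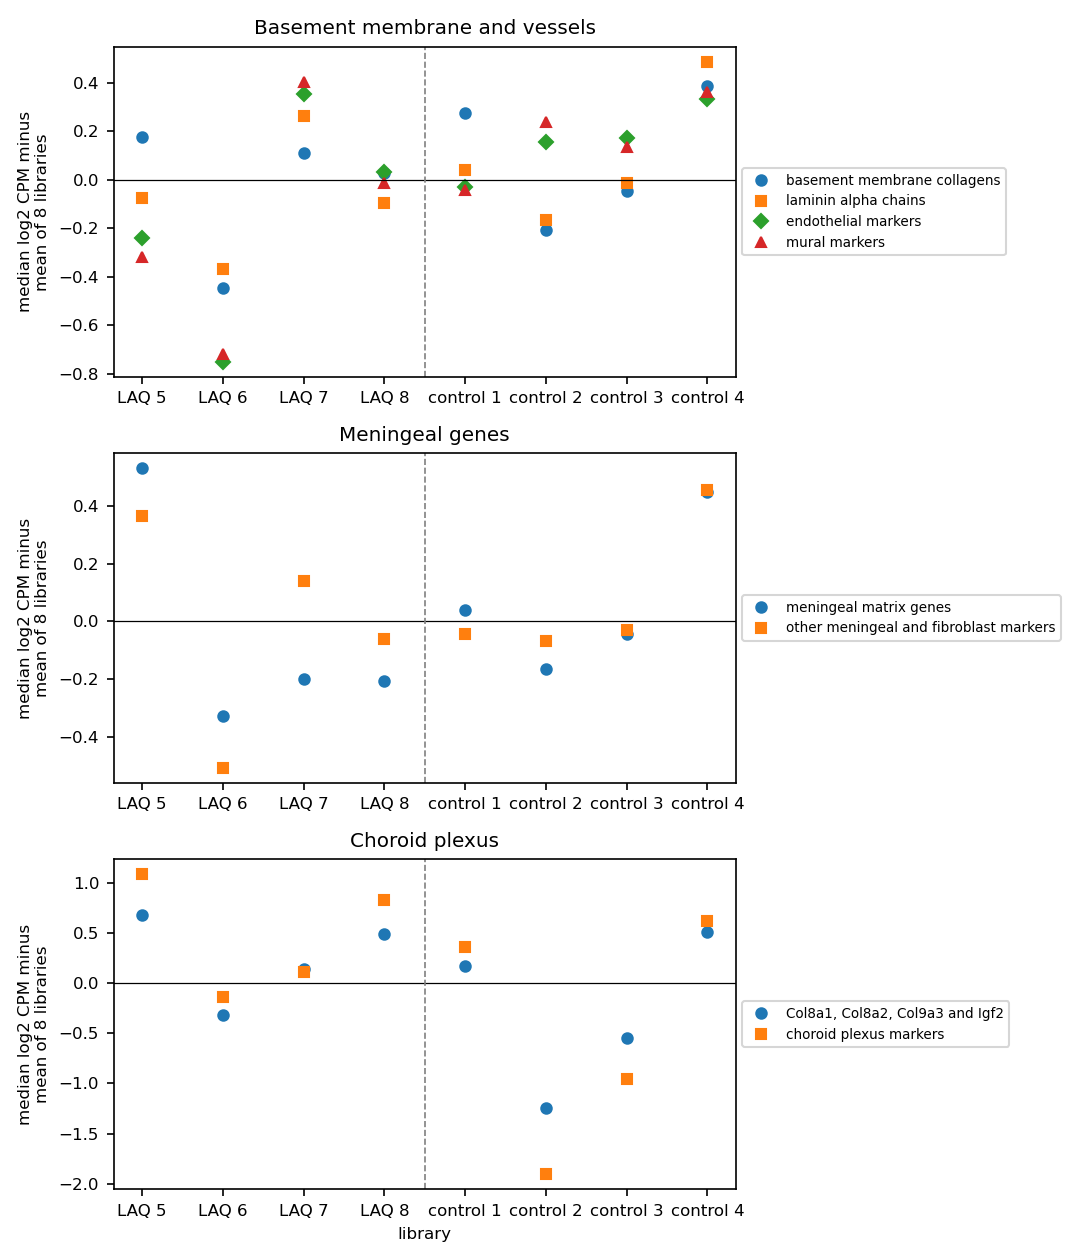
Median of log2 CPM minus the mean of 8 libraries for member families and marker lists in each library, LAQ left of control. LAQ 6 is lowest for vessel and meningeal genes, LAQ 5 and control 4 are highest for meningeal genes, and control 2 is lowest for choroid plexus markers and for Col8a1, Col8a2, Col9a3 and Igf2.

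Genes that make, bind and degrade these proteins were read as 5 lists, beside the median of -0.0012 for all genes. Of 25 tested genes for collagen modification, secretion and cross-linking, 14 were above 0 and 11 below (median 0.046), with 1 at an unadjusted edgeR p under 0.05. That gene was Bmp1, the procollagen C-proteinase, with 54.8, 55.2, 48.3 and 57.1 CPM in LAQ, against 57.2, 62.7, 65.7 and 64.6 CPM in control. Its groups did not overlap (log2 ratio -0.22 ± 0.078, edgeR adjusted p = 0.356). Leprel2, the older symbol of P3h3 in the prolyl hydroxylase family, had -0.26 ± 0.13, and Pcolce, an enhancer of the Bmp1 protease, had 0.52 ± 0.30. Of 12 basement membrane partners 3 were above 0 and 9 below (median -0.064), with the proteoglycan agrin, Agrn, at -0.23 ± 0.11, Npnt (nephronectin) at 0.33 ± 0.29 and Nid2 (nidogen) at 0.25 ± 0.23. Of 13 tested receptors 7 were above 0 and 6 below (median 0.037). Mrc2, an endocytic receptor that clears collagen, had 6.38, 4.50, 4.69 and 3.02 CPM in LAQ, against 6.69, 7.24, 7.67 and 7.37 CPM in control, with no overlap, a log2 ratio of -0.63 ± 0.21 and an edgeR adjusted p of 0.311. The collagen receptor Ddr1 had 0.16 ± 0.072 and the laminin receptor Bcam -0.30 ± 0.17.

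Among 13 tested matrix proteases and inhibitors 6 were above 0 and 7 below (median -0.0023). Adamts4, a proteoglycanase that oligodendrocytes express, had 142, 122, 139 and 119 CPM in LAQ, against 116, 101, 99.0 and 116 CPM in control, with every LAQ library above every control library. Its log2 ratio was 0.27 ± 0.085 (edgeR adjusted p = 0.285), and Adamts1 and Adamts5 had 0.19 ± 0.11 and 0.58 ± 0.38. Of 18 other fibroblast matrix genes 9 were above 0 and 9 below (median 0.0022). The small proteoglycan Prelp had 0.32 ± 0.10, fibronectin, Fn1, had -0.38 ± 0.17 and fibromodulin, Fmod, had -0.61 ± 0.30. No gene of these 5 lists passed edgeR's test over all genes or DESeq2's. Of their 81 tested members 5 had an unadjusted edgeR p under 0.05, where the share over all genes was 11.1%. Only Bmp1, Mrc2 and Adamts4 had no overlap between the groups, beside 6.39% of all genes.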

How the data were processed

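Poly(A) RNA of frozen corpus callosum was sequenced in 8 libraries. The authors deposited 1 table of raw counts, whole numbers for each gene symbol. Per the submitters' processing notes, the tools were STAR 2.5.2b, HTSeq, bcl2fastq 2.17.1.14 and DESeq2 1.10.1, on GRCm38.p3. Annotation release, strand setting and read filters are not given in the sources used here. A second deposited table of normalized values was not used.

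Of 41128 genes, 15771 passed edgeR's filterByExpr (minimum count 10, minimum total 15). Libraries were scaled by TMM and compared in R 4.3.3 by the two-sided quasi-likelihood test of edgeR 4.0.16 (with limma 3.58.1), without covariates, with Benjamini-Hochberg adjustment over all genes tested and a threshold of 0.05. Standard errors are the fold change's size over the square root of F. Log2 levels used a prior count of 2. Alternatives included DESeq2 1.42.0, limma voom, other scalings and filters, a cortical covariate and leaving out each library. The procedure was tested on simulated counts. With about 10 counts or fewer in a library, counting error alone is large. Exon lengths came from GENCODE M21 on GRCm38, with the exons of all transcripts of a gene merged, and the promoter windows from RefSeq on GRCm38.p6. The older symbols of collagen-modifying genes were matched through RefSeq synonyms. Figures used matplotlib 3.10.9.

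The members and lists were chosen with earlier results of these data known. Named were the 8 meningeal genes, in each other family the 3 members of smallest p and the 2 most abundant, members without overlap, members with a log2 fold change of at least 0.5 in size where the mean log2 CPM was 0 or more, and the 3 genes of smallest p per pathway list (up to 2 per marker list). Other members were added to complete a family, and some genes are not reported here by name.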

Additional observations from a re-analysis of the deposited data

Results flagged for a closer look

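In 98 groups of 4 libraries, for 40 named members and 9 family sums in LAQ and in control, 7 had a single library far from the other 3, where chance gives about 1 in 20. Aldh1a2 was 15.6 CPM in LAQ 5, against 5.51 to 7.08 CPM in the other LAQ libraries. Islr was 30.04 CPM in control 4, against 21.8 to 22.6 CPM in the other control libraries. Col19a1 was 23.4 CPM in LAQ 8, against 19.0 to 19.6 CPM in the other LAQ libraries, and still below every control library. Col6a5 was 1.73 CPM in LAQ 7, against 0.540 to 0.624 CPM in the others of its group, and Col17a1 was 0.381 CPM in LAQ 5, against 1.26 to 1.40 CPM. The fibril-forming collagens summed to 78.1 CPM in LAQ 6, against 106 to 111 CPM in the other LAQ libraries. The transmembrane collagens summed to 42.7 CPM in control 1, against 55.1 to 56.2 CPM in the other control libraries.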

How the results depend on the processing

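Under median-of-ratios scaling, library size alone, a filter of 1 CPM in 4 libraries and robust edgeR, every family median moved by less than the spread between libraries, the counts stayed within 1.5 times and no named member changed its call or its sign. Limma voom did the same with 1 exception, Islr, at -0.031. A threshold of 0.1 gave 0 calls. Without a filter edgeR called 1 member, Col5a1 (background 0.0993%), and 15 had an unadjusted p under 0.05 (background 8.78%). DESeq2 called 2 (background 0.837%). With the cortical score edgeR called 10, and 23 had an unadjusted p under 0.05 (background 20.6%). The medians were then -0.46 for all members, -0.63 for fibril-forming and 0.018 for transmembrane collagens, -0.56 for laminin alpha and -0.57 for beta chains. The cause was not tested. Over the fits without 1 library, calls ranged from 0 to 2, members at an unadjusted p under 0.05 from 7 to 21 and members without overlap from 4 to 11, each highest without LAQ 7, where 16.6% of all genes did not overlap. Groups of fewer libraries separate more readily by construction. Medians ranged over those fits from -0.29 to -0.069 (all members), -0.42 to -0.21 (fibril-forming), -0.36 to -0.035 (basement membrane), -0.38 to 0.11 (microfibril and network), -0.049 to 0.16 (fibril-associated), 0.22 to 0.35 (transmembrane), -0.50 to -0.12 (laminin alpha), -0.47 to -0.14 (laminin beta), -0.26 to 0.096 (meningeal genes). Signs turned round in single fits for Ogn (-0.12 to 0.46), Islr (-0.18 to 0.14), Col11a2 (-0.22 to 0.032) and Slc6a13 (-0.35 to 0.061). Without both control 4 and LAQ 6, an alternative chosen after seeing the data, the median of all members was -0.021, that of the basement membrane collagens 0.10 and of the laminin beta chains -0.021. In that fit 8 members did not overlap (13.9% of all genes), 0 were called, and Slc6a13 (0.14), Col11a2 (0.14), Col16a1 (0.0058) and Col23a1 (0.060) turned positive, while Ogn was at 0.50 and Islr at 0.12. No paired analysis was possible because no replicate number is shared between the groups. Without 1 library Col23a1 ranged from -0.28 to -0.047 and Col16a1 from -0.29 to -0.037. Depth limits Col4a3, Col4a4, Col4a6, Col6a4, Col6a5, Col6a6, Col7a1, Col9a1, Col14a1, Col15a1, Col17a1, Col22a1 and Lamb3, each at or below 33 counts in every library.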
